A study of Mus musculus with 10 samples.

Results

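The hearts compared here were chosen by the measured level of Myl7. They were the 4 of 10 in which this gene of the atrial regulatory myosin light chain reached at least 10 FPKM and the 6 in which it stayed under that level (FPKM: fragments per kilobase of exon, scaled to library size). The series measured RNA from heart tissue of 5 A-PDK1KO mice, in which 3-phosphoinositide-dependent kinase 1 (PDK1) is deleted only in adipocytes, and of 5 PDK1 flox/flox control mice, which carry the floxed gene without that deletion. All were killed at 10 to 11 weeks of age in the randomly fed state, and the labels do not give the Cre driver, the sex, a batch or how much of the heart was taken. The Myl7-high hearts were control replicates 2 and 5 and A-PDK1KO replicates 3 and 5. The Myl7-low hearts were control replicates 1, 3 and 4 and A-PDK1KO replicates 1, 2 and 4, so genotype was balanced over the sets at 2 and 2 against 3 and 3.

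Myl7 chose the sets, and its levels are given as a description without a test. It stood at 85.9 FPKM in control replicate 2, 71.3 in control replicate 5, 35.0 in A-PDK1KO replicate 3 and 47.6 in A-PDK1KO replicate 5. Of the Myl7-low hearts, control replicates 1, 3 and 4 had 0, 0 and 0.877 FPKM, and A-PDK1KO replicates 1, 2 and 4 had 0.707, 0.174 and 0 FPKM. The 4 highest values rested on 228 to 514 reads and the 6 lowest on 0 to 5 reads. No heart lay near the limit of 10 FPKM, since the nearest values were 35.0 FPKM above it and 0.877 FPKM below it.

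Adult atrial and ventricular cardiomyocytes build the same kind of sarcomere from partly different proteins. Atrial cells use the regulatory light chain of Myl7 and the essential light chain of Myl4, whereas ventricular cells use those of Myl2 and Myl3. Atrial cells also express sarcolipin, the product of Sln, a small membrane protein that inhibits the calcium pump of the sarcoplasmic reticulum, a task done in the ventricle by phospholamban (Pln), and they store and secrete atrial natriuretic peptide (Nppa). RNA of heart tissue is mostly ventricular, and atrial transcripts in it depend on which chambers were in the sample. In bulk RNA, fewer cells of a type cannot be told apart from less of its RNA per cell.

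The promoters of 4 of the genes described below are shown. They are Myl7, which formed the sets, and genes that were higher in the Myl7-high hearts. Whether these genes share a regulator was not tested. RefSeq entries on the GRCm38.p6 build were found for 4 of 6 genes looked for: Myl7, Myl4, Mybphl and Hamp. The stretches run over the 250 bases before the RefSeq start, at chr11:5898783-5899032 on the minus strand for Myl7, chr11:104550413-104550662 on the plus strand for Myl4, chr3:108364661-108364910 on the plus strand for Mybphl and chr7:30944030-30944279 on the minus strand for Hamp. Capitals mark matches to GATAA, the core of a GATA factor site, in either direction, and to the CArG box of serum response factor.
Myl7: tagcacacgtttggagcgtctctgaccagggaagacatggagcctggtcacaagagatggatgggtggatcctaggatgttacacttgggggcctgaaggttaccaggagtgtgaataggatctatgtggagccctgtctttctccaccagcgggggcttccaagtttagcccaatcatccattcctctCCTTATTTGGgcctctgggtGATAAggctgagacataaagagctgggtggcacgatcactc
Myl4: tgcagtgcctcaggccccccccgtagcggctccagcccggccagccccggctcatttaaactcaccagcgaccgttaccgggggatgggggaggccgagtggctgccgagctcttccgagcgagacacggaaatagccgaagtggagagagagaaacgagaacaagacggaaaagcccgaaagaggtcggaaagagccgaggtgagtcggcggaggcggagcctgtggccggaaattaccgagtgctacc
Mybphl: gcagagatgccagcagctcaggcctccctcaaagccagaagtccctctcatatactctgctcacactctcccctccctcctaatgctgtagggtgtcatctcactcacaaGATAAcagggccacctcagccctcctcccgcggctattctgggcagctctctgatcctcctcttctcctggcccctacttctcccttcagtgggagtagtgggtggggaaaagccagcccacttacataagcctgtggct
Hamp: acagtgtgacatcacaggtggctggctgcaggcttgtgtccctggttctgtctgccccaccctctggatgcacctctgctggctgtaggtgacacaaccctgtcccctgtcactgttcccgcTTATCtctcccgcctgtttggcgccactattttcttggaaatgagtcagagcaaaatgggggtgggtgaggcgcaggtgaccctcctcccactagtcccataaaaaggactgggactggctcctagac
GATAA was found in 3 of the 4 stretches. It lay 41 to 37 bases before the start in Myl7, 140 to 136 bases before it in Mybphl and, as TTATC on the other strand, 128 to 124 bases before it in Hamp. The Myl7 stretch also held the CArG box CCTTATTTGG, 61 to 52 bases before the start, and none of these matches overlapped another. Of 32841 promoters of the same length, 22.6% held GATAA on either strand and 1.47% held a CArG box. Searched in the same way, the T-box motif AGGTGT (11.8% of promoters), the nuclear receptor motif AGGTCA (14.0%), the MEF2 motif, CTA and TAG with any 4 bases between them (3.20%), and TATAAA (12.4%) were found in 0 of the 4. These matches describe the letters only.

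Across all other genes, 5 were higher in the Myl7-high hearts and 1 was lower. The 5 were Myl4, Sln, Mybphl, Dkk3 and Hamp, all of them on the list of atrial cardiomyocyte genes. That list was chosen with earlier results of these data known, so membership is no independent support. Of its 15 tested genes besides Myl7, 10 were not called. Of the 5 called higher, those with reads in the Myl7-low hearts rose by 4.71-fold (Dkk3) to 50.9-fold (Myl4) in mean FPKM. Sln, which had no read in any Myl7-low heart, rose by at least 183-fold. The test was limma on log2(FPKM + 1) with genotype as a covariate, on genes whose mean was 1 FPKM or more, and a gene was called at a Benjamini-Hochberg adjusted p under 0.05. The p-values were adjusted over 9987 genes including Myl7, which formed the sets, and counts are over the 9986 others. With Myl7 left out of the adjustment, a setting chosen after seeing the data, the same 6 genes were called, with limma adjusted p from 3.05e-06 for Myl4 to 0.0296 for Hamp. The called genes made up 0.0601% of those tested, 0.0501% higher and 0.01% lower. The sets were formed from the level of Myl7 in these same libraries and are not groups of the study, so an adjusted p states how far a gene's sets lie apart relative to the spread among hearts. Myl4, Sln, Mybphl and Hamp were under 1 FPKM in all 6 Myl7-low hearts. Dkk3 was under 1 FPKM there on average, with only A-PDK1KO replicate 4 above 1 FPKM. All 5 genes thus passed the filter of the mean only through the other 4 hearts. With no filter the same 6 genes were called, of 11789 tested. Every deposited gene, however, had reached at least 1.00 FPKM in some heart. Myl4, Sln, Mybphl and Hamp therefore entered that fit too only through the Myl7-high hearts, so it does not remove this selection.

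**Figure D1:**
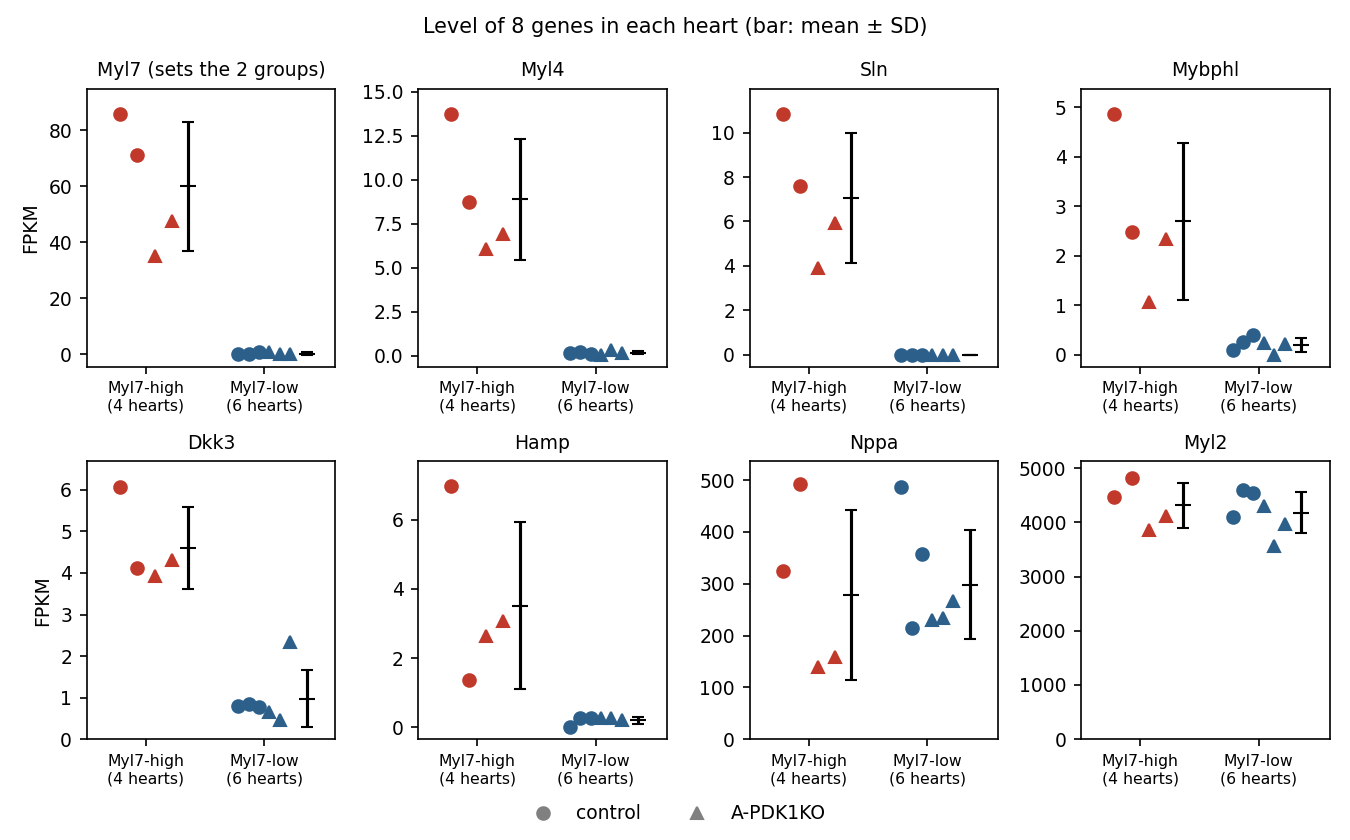
FPKM of 8 genes in each heart, on linear axes, for the 4 Myl7-high hearts (red) and the 6 Myl7-low hearts (blue); circles are control hearts, triangles A-PDK1KO hearts, and the bar beside each set is its mean ± SD. Myl4, Sln, Mybphl, Dkk3 and Hamp separate the sets as Myl7 does, whereas Nppa (139 to 492 against 214 to 486 FPKM) and Myl2 overlap.

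Myl4 (mm10 chromosome 11, 104550663 to 104595753, plus strand), the essential light chain that partners Myl7 in atrial myosin, was at 13.7 FPKM in control replicate 2, 8.76 in control replicate 5, 6.09 in A-PDK1KO replicate 3 and 6.91 in A-PDK1KO replicate 5. Of the Myl7-low hearts, control replicates 1, 3 and 4 had 0.140, 0.206 and 0.134 FPKM, and A-PDK1KO replicates 1, 2 and 4 had 0.0675, 0.310 and 0.189 FPKM. The sets lay far apart, with 312 to 646 reads per heart in one and 3 to 14 in the other. The mean was 8.87 ± 3.43 FPKM (SD, n = 4) against 0.174 ± 0.0823 FPKM (SD, n = 6). The difference of the sets on the log2(FPKM + 1) scale was 3.02 (95% interval 2.67 to 3.36, limma adjusted p = 1.52e-06). Unlike Myl7, which had 0 reads in 3 of the hearts, Myl4 had reads in every heart.

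Sln (chromosome 9, 53850164 to 53854560, plus strand) was at 10.9 FPKM in control replicate 2, 7.58 in control replicate 5, 3.91 in A-PDK1KO replicate 3 and 5.93 in A-PDK1KO replicate 5. It was at 0 in each of the 6 Myl7-low hearts. Of the called genes, Sln alone had 0 reads in every Myl7-low heart, against 57 to 145 reads in each Myl7-high heart. Set against 3 reads over the Myl7-low hearts together (0.0385 FPKM), the most that a count of 0 allows, its mean of 7.07 ± 2.93 FPKM (SD, n = 4) was at least 183-fold higher. On the log2(FPKM + 1) scale the difference was 2.94 (95% interval 2.58 to 3.30, limma adjusted p = 2.39e-06).

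Mybphl (chromosome 3, 108364911 to 108380057, plus strand), a myosin-binding protein of the thick filament related to the cardiac myosin-binding protein C gene Mybpc3, was less abundant. It was at 4.87 FPKM in control replicate 2, 2.49 in control replicate 5, 1.06 in A-PDK1KO replicate 3 and 2.35 in A-PDK1KO replicate 5, on 15 to 63 reads. In the Myl7-low hearts it ranged from 0 to 0.405 FPKM with a median of 0.226 FPKM, on 0 to 5 reads. The sets did not overlap, and the difference was 1.53 on the log2(FPKM + 1) scale (95% interval 1.10 to 1.96, limma adjusted p = 0.0140), a 13.6-fold difference of means. Its call was lost without control replicate 1 (adjusted p = 0.0561), control replicate 3 (0.0515), control replicate 4 (0.0594) or A-PDK1KO replicate 5 (0.0810). Without control replicate 2 it fell under the filter and was not tested.

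Dkk3 (chromosome 7, 112116017 to 112159057, minus strand), which encodes a secreted glycoprotein of the Dickkopf family, had a measurable level in both sets. It was at 6.08 FPKM in control replicate 2, 4.11 in control replicate 5, 3.93 in A-PDK1KO replicate 3 and 4.31 in A-PDK1KO replicate 5. Of the Myl7-low hearts, control replicates 1, 3 and 4 had 0.805, 0.854 and 0.770 FPKM, and A-PDK1KO replicates 1, 2 and 4 had 0.652, 0.458 and 2.33 FPKM. A-PDK1KO replicate 4 thus stood between the other Myl7-low hearts and the Myl7-high hearts, while its Myl7 and Sln were at 0. The difference was 1.54 on the log2(FPKM + 1) scale (95% interval 1.10 to 1.99, limma adjusted p = 0.0151). The adjusted p was 1.92e-05 without A-PDK1KO replicate 4. The call was lost without control replicate 1 (0.0777), 2 (0.110), 3 (0.0522) or 4 (0.0705) or A-PDK1KO replicate 5 (0.0810).

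Hamp (chromosome 7, 30942368 to 30944032, minus strand) encodes hepcidin, the hormone that lowers iron export from cells, made mainly by the liver, and it stands on the atrial list as a gene of the right atrium. It was at 6.98 FPKM in control replicate 2, 1.37 in control replicate 5, 2.65 in A-PDK1KO replicate 3 and 3.06 in A-PDK1KO replicate 5, and between 0 and 0.259 FPKM in the Myl7-low hearts. The sets did not overlap, but the reads were few, 29, 6, 12 and 13 in those 4 hearts and at most 1 in each Myl7-low heart. The difference was 1.77 on the log2(FPKM + 1) scale (95% interval 1.21 to 2.32, limma adjusted p = 0.0253). The call was kept only without control replicate 5 (0.00140). It was lost without control replicate 1 (0.113), 3 (0.0709) or 4 (0.0958) and without A-PDK1KO replicate 1 (0.0626), 2 (0.0935), 3 (0.0935), 4 (0.0734) or 5 (0.128). Without control replicate 2 Hamp fell under the filter, and its call was lost with limma voom on recovered reads (0.0672) and with robust variances (0.138). Bmp10, the other right atrial gene of that list, was not analysed here. Hamp2, named because of its values, had 3, 6, 3 and 4 reads in the Myl7-high hearts and 0 to 9 in the Myl7-low hearts, so its sets overlapped. Since strand is not known, reads shared with overlapping genes cannot be told apart from reads of Hamp. How reads shared with near-identical genes such as Hamp2 were counted is not known either. A-PDK1KO replicates 1 and 2 had 9 and 7 reads of Hamp2 and 1 read of Hamp each, and control replicate 2 had 3 and 29.

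**Figure D2:**
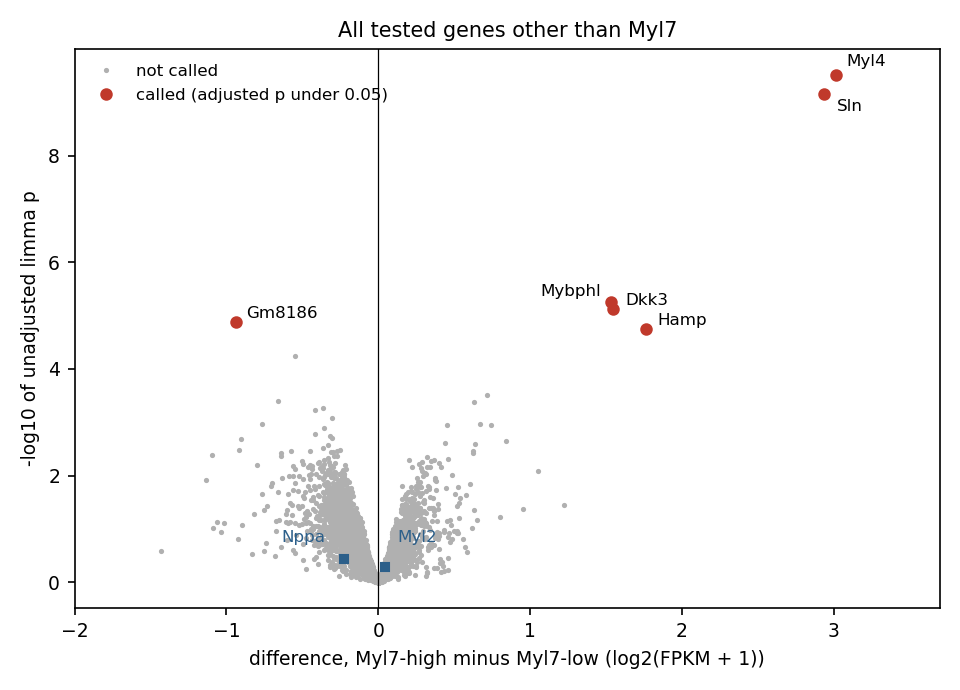
Difference between the sets on the log2(FPKM + 1) scale (x axis) against the −log10 of the unadjusted limma p (y axis) for 9986 tested genes, Myl7 left out; red points passed the adjusted threshold and blue squares mark Nppa and Myl2. Myl4 and Sln stand apart at 3.02 and 2.94, followed by Hamp, Dkk3 and Mybphl between 1.53 and 1.77, and the single lower gene is the pseudogene Gm8186 at -0.94.

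The called genes did not keep the same order among the 4 Myl7-high hearts. Myl4, Sln and Mybphl followed the order of Myl7, highest in control replicate 2, then control replicate 5, A-PDK1KO replicate 5 and A-PDK1KO replicate 3. The middle hearts of that order lay close for Mybphl, at 34 and 31 reads. Relative to Myl7 in the same heart, where both values are per length, Sln kept the narrowest range, at 12.6% and 10.6% of the Myl7 FPKM in control replicates 2 and 5 and 11.2% and 12.5% in A-PDK1KO replicates 3 and 5. Myl4 stood at 16.0%, 12.3%, 17.4% and 14.5% of Myl7 in the same hearts. The exon length divided by was 4637 bases for Myl4 and 590 for Myl7, so these percentages depend on those lengths. Of the reads of both genes together, Myl4 held 55.7%, 49.1%, 57.8% and 53.3% in those hearts. Mybphl stood at 5.67%, 3.49%, 3.04% and 4.93% of the Myl7 FPKM. Dkk3 had its highest share, 11.2%, in A-PDK1KO replicate 3, the heart with the least Myl7 of the 4, and its lowest, 5.76%, in control replicate 5.

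Hamp departed most from Myl7. It was at 8.12%, 7.57% and 6.43% of the Myl7 FPKM in control replicate 2 and A-PDK1KO replicates 3 and 5, but at 1.91% in control replicate 5. That heart was the second highest for Myl7 and the lowest of the 4 for Hamp. As a share of the reads of Hamp and Myl7 together, the exact 95% binomial interval was 0.483% to 2.84% in control replicate 5 and 3.61% to 7.58% in control replicate 2. Those 2 intervals cover counting error only and did not overlap. The intervals of A-PDK1KO replicates 3 (2.61% to 8.57%) and 5 (2.30% to 7.20%) overlapped both. For Myl4 the intervals of control replicates 2 (52.8% to 58.6%) and 5 (45.8% to 52.4%) did not overlap either. For Dkk3 that of A-PDK1KO replicate 3 (34.1% to 44.2%) lay above that of control replicate 2 (25.4% to 32.2%). With 4 hearts these ratios are a description, and no correlation was computed.

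**Figure D3:**
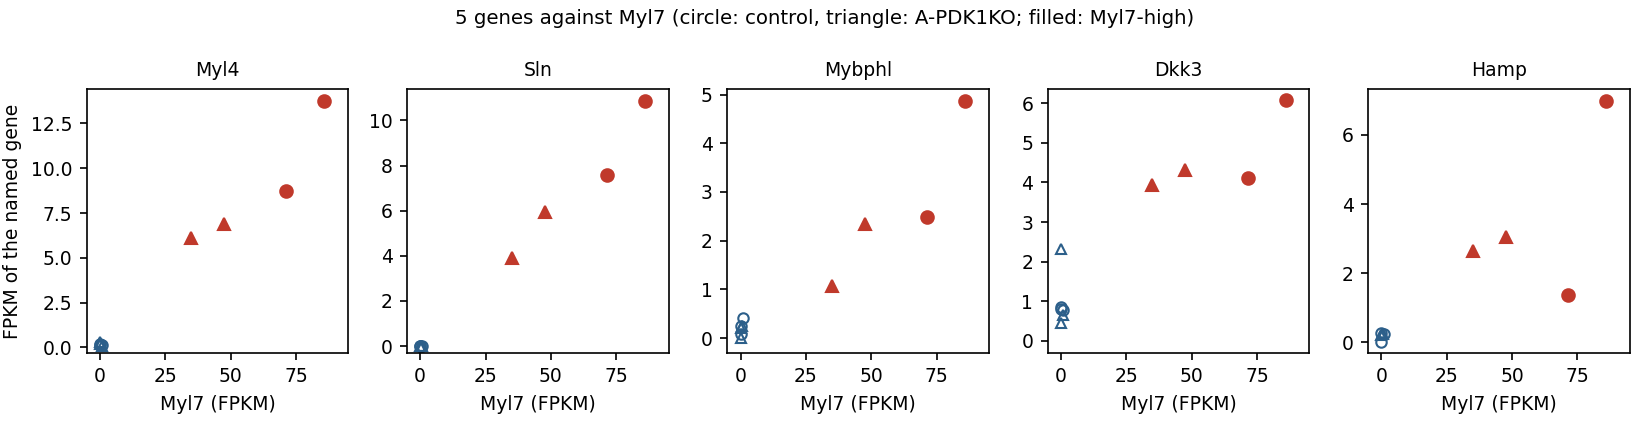
FPKM of Myl4, Sln, Mybphl, Dkk3 and Hamp (y axes) against FPKM of Myl7 (x axis) in each heart; filled red symbols are the 4 Myl7-high hearts, open blue symbols the 6 Myl7-low hearts, circles control and triangles A-PDK1KO. Myl4, Sln and Mybphl rank the 4 hearts as Myl7 does, Dkk3 of A-PDK1KO replicate 4 lies at 2.33 FPKM with no Myl7, and Hamp of control replicate 5 lies at 1.37 FPKM despite 71.3 FPKM of Myl7.

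Atrial transcripts remained a small part of each pair of chamber proteins. Per length, Myl7 reached 1.92%, 1.48%, 0.906% and 1.16% of the level of the ventricular light chain Myl2 in control replicates 2 and 5 and A-PDK1KO replicates 3 and 5, and at most 0.0193% in the Myl7-low hearts. Myl4 was at 0.223% to 0.434% of Myl3 in the Myl7-high hearts, and at 0.00229% to 0.0112% in the Myl7-low hearts. Sln was at 0.354% to 0.897% of Pln in the former. Each ratio depends on the exon length by which its genes are divided, 4637 bases for Myl4. All 3 ratios put control replicate 2 first and A-PDK1KO replicate 3 last among the Myl7-high hearts.

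Nppa, the best known atrial transcript and one of the markers by which atrial tissue would be recognised, did not separate the sets. It was at 325 FPKM in control replicate 2, 492 in control replicate 5, 139 in A-PDK1KO replicate 3 and 159 in A-PDK1KO replicate 5. Of the Myl7-low hearts, control replicates 1, 3 and 4 had 486, 214 and 357 FPKM, and A-PDK1KO replicates 1, 2 and 4 had 230, 234 and 267 FPKM. The lowest 2 values of all 10 hearts thus belonged to Myl7-high A-PDK1KO hearts, and the highest value to a Myl7-high control heart. The difference of the sets was -0.22 on the log2(FPKM + 1) scale (95% interval -0.74 to 0.29, limma adjusted p = 0.839). Nppa thus did not follow the Myl7 split and Myl4 did, so the hearts are called here by their Myl7 level. Per length Nppa was also above Myl7 in every heart.

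The remaining atrial genes did not pass the test. Of 19 listed genes besides Myl7, 15 were measured and 5 called, while the 10 others had a median difference of -0.10, beside a median of -0.05 over all tested genes. They included Stard10, a lipid transfer protein (0.12), the peptide-amidating granule enzyme Pam (-0.04) and the kinase gene Sbk2 (-0.12). Kcnj3 and Kcnj5, whose products form the acetylcholine-activated potassium channel, differed by 0.15 and -0.32. The potassium channel gene Kcna5 (-0.07), the transcription factors Nr2f2 (-0.10) and Tbx5 (-0.10) and the connexin gene Gja5 (-0.13) also overlapped between the sets. Kcnj5 came nearest, at 9.12 to 11.6 FPKM in the Myl7-high hearts and 10.4 to 16.9 FPKM in the others (95% interval of the difference -0.60 to -0.04, limma adjusted p = 0.775). Nr2f1, Cacna2d2 and Bmp10 were not analysed here.

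Ventricular cardiomyocyte genes did not differ detectably. Of 9 measured members 0 were called, 1 had an unadjusted p under 0.05, against 6.09% of all tested genes, and their median difference was -0.10. The light chains Myl2 (0.05, 95% interval -0.10 to 0.19) and Myl3 (0.02, 95% interval -0.10 to 0.14) were the 2 with values above 0. The ventricular transcription factor Irx4 differed by -0.14, the slow myosin heavy chain Myh7 by -0.30, Pln by -0.08 and the co-regulator Fhl2 by -0.10. Among potassium current genes, Kcnj2 differed by -0.21, Kcnd2 by -0.07 and its subunit Kcnip2 by -0.23, the last with an unadjusted p of 0.0105 and a limma adjusted p of 0.775. Kcnip2 was also lower in A-PDK1KO hearts (-0.52, limma adjusted p = 0.00962).

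Markers of other tissue that can come with the atria or the base of the heart were examined next. Of 6 tested sinoatrial and conduction genes 0 were called, and their median was 0.01. The pacemaker channel gene Hcn4 was at 1.10 to 3.40 FPKM in the Myl7-high hearts and 0.919 to 2.31 FPKM in the others (difference 0.27), and Tbx3, a conduction system transcription factor, differed by -0.04. The valve and cartilage-like matrix list had a median of 0.38 over 4 genes, with 0 called. In it, the collagen-binding proteoglycan gene Fmod was at 0.903 to 2.75 FPKM against 0.158 to 1.41 FPKM (difference 0.84, 95% interval 0.37 to 1.31, limma adjusted p = 0.775). With 1 heart left out in turn the median of that list ran from 0.02 to 0.45.

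Smooth muscle and large vessel genes lay lower in the Myl7-high hearts without passing the test. All 7 tested members had values under 0, where 31.8% of all tested genes had a value above 0, with a median of -0.31, and 0 were called. The summed level of the 10 listed genes was 45.3 to 55.4 FPKM in the Myl7-high hearts and 58.9 to 91.9 FPKM in the Myl7-low hearts, ranges that did not overlap. Smooth muscle actin, Acta2, was at 16.0 ± 3.32 FPKM (SD, n = 4) against 22.4 ± 5.79 FPKM (SD, n = 6; difference -0.45, limma adjusted p = 0.775), Tagln at 10.1 to 14.2 against 12.5 to 23.8 FPKM, and Smtn at 6.50 to 7.61 against 7.70 to 11.5 FPKM. The median stayed between -0.42 and -0.19 over the other settings and left-out hearts. Whether this difference has a part in the atrial calls was not tested.

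Lists of other cell types had 0 called genes each. The fibroblast list had a median of 0.12 over 12 genes, of which 10 had values above 0 and 3 an unadjusted limma p under 0.05. Over all tested genes these shares were 31.8% and 6.09%. The sets did not overlap in 1 fibroblast gene, against 0.871% of all tested genes. This was the collagen gene Col1a2, named because of its values, at 5.71 to 6.44 against 4.13 to 5.61 FPKM (difference 0.25, limma adjusted p = 0.775). The summed levels of the fibroblast list overlapped, with decorin (Dcn) at 81.6 to 101 against 81.2 to 98.3 FPKM. The macrophage list had a median of 0.10 over 11 genes, the endocardial list -0.17 over 6 and the capillary endothelial list -0.05 over 10. Blood cell genes had a median of 0.41 over 5, but the beta-globin gene Hbb-bs was at 758 FPKM in control replicate 1, a Myl7-low heart, and the median ran from -0.11 to 1.198 as hearts were left out. The adipocyte list, the cell type in which PDK1 was deleted, was represented by Cidea and Fabp4 with a median of -0.04, and 7 of its 10 genes were not analysed here.

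**Figure D4:**
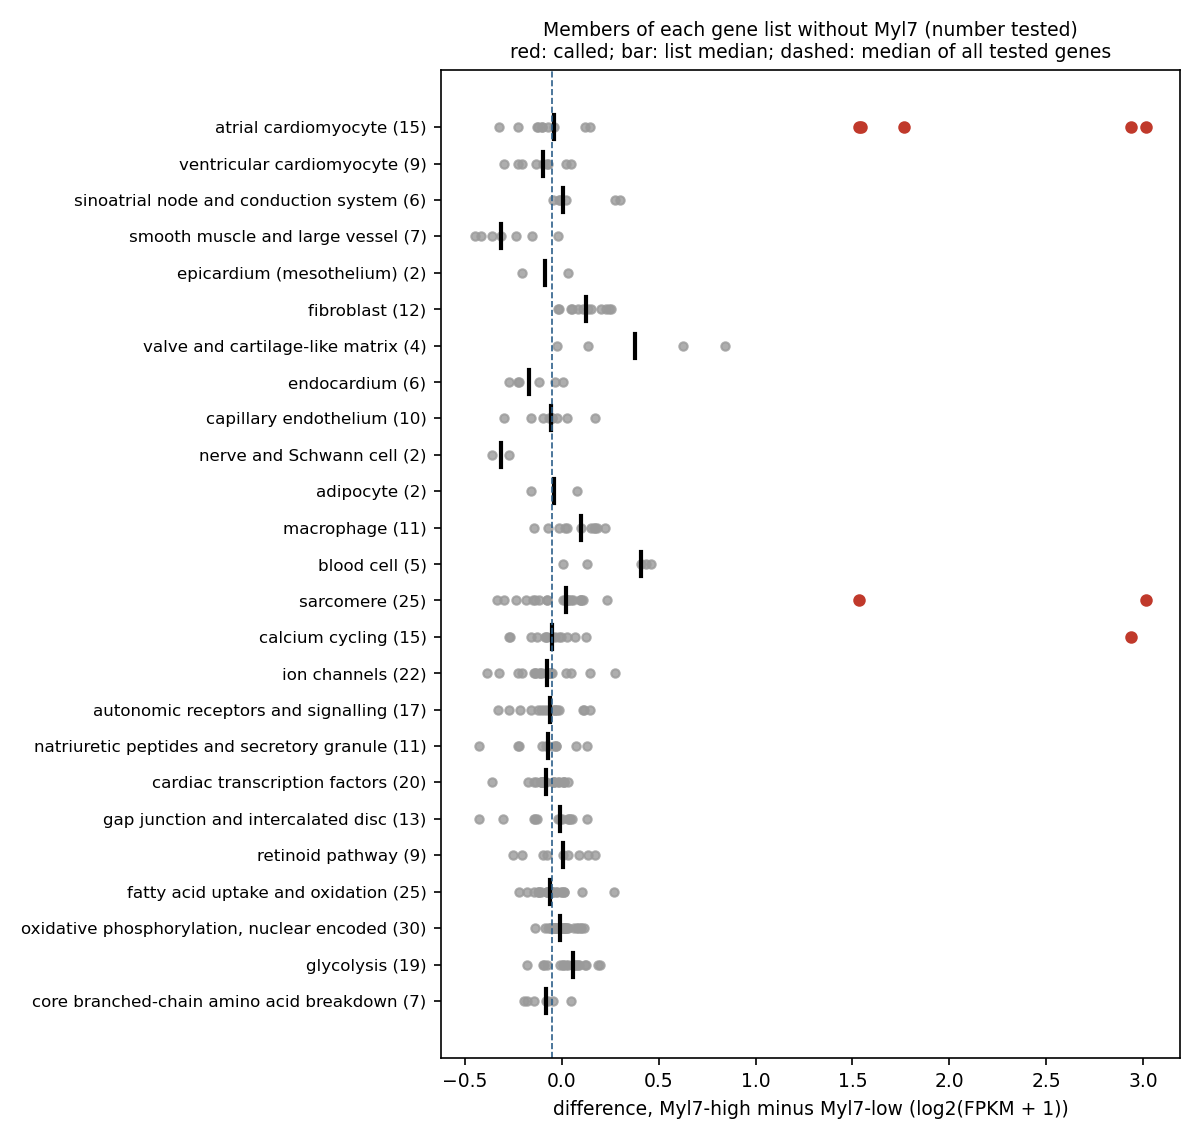
Differences between the sets on the log2(FPKM + 1) scale (x axis) for the tested members of each gene list (rows, number tested in brackets); each point is a gene, red where called, black bars are list medians and the dashed line is the median of all tested genes at -0.05. Called genes appear in the atrial list and, as Myl4, Mybphl and Sln, in the sarcomere and calcium cycling lists; the smooth muscle list has its median at -0.31.

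In the pathways to which the called genes belong, no other tested member was called. Of 25 tested sarcomere genes Myl4 and Mybphl were called, and the other 23 had a median of 0.02. The atrial and ventricular heavy chain gene Myh6, the main myosin of the adult mouse heart, was at 1569 to 1840 FPKM against 1276 to 2176 FPKM (difference 0.01). Of 15 calcium cycling genes Sln was called, and the other 14 had a median of -0.06. Among 22 ion channel genes 0 were called and the median was -0.08. In 17 autonomic receptor and signalling genes it was -0.06, and in 11 natriuretic peptide and granule genes -0.07, with 0 called in each.

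Gap junction and transcription factor genes also held 0 called members, with medians of -0.01 over 13 genes and -0.08 over 20. In 1 gap junction gene, named because of its values, the sets did not overlap in spite of a high adjusted p. This was Gja1, the connexin 43 gene of ventricular gap junctions, at 19.7 to 21.9 FPKM in the Myl7-high hearts and 23.1 to 29.1 FPKM in the Myl7-low hearts (difference -0.30, 95% interval -0.47 to -0.14, limma adjusted p = 0.775). Sets that did not overlap were found in 0.871% of all tested genes, with all values higher in the Myl7-high hearts in 0.17% and lower in 0.701%.

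No gene of energy metabolism on the lists was called. The medians were -0.06 over 25 fatty acid uptake and oxidation genes, -0.01 over 30 nuclear genes of oxidative phosphorylation, 0.06 over 19 glycolytic genes and -0.08 over 7 core genes of branched-chain amino acid breakdown, the study's subject, with 0 called in each. The interval of the difference of a single gene had a median half-width of 0.22, before any adjustment over genes. Bckdha, a subunit of the branched-chain ketoacid dehydrogenase, was at 123 to 163 against 140 to 186 FPKM (difference -0.18, 95% interval -0.34 to -0.02, limma adjusted p = 0.775).

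The lower gene, Gm8186 (chromosome 17, 26098991 to 26099221, minus strand), is annotated as a processed pseudogene and is named because of its values. It was at 15.8 FPKM in control replicate 2, 13.3 in control replicate 5, 13.3 in A-PDK1KO replicate 3 and 10.4 in A-PDK1KO replicate 5. Of the Myl7-low hearts, control replicates 1, 3 and 4 had 31.4, 33.6 and 30.5 FPKM, and A-PDK1KO replicates 1, 2 and 4 had 16.3, 27.5 and 21.3 FPKM. The sets did not overlap, the nearest hearts being A-PDK1KO replicate 1 and control replicate 2, and the difference was -0.94 (95% interval -1.22 to -0.65, limma adjusted p = 0.0218). A processed pseudogene resembles its parent gene, so its reads are uncertain. The call was lost without control replicate 1 (0.0974), 2 (0.110), 3 (0.0709), 4 (0.0854) or 5 (0.0910) or A-PDK1KO replicate 4 (0.0608) or 5 (0.128), with limma voom on recovered reads (0.180) and with no genotype covariate (0.248).

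Genotype entered next, because the 2 Myl7-high hearts of each genotype were not alike. Myl7, Myl4, Sln and Mybphl were higher in both control hearts than in both A-PDK1KO hearts of that set. For Mybphl this rested on 34 reads in control replicate 5 against 31 in A-PDK1KO replicate 5. Within controls the sets differed by 3.37 for Myl4, 3.33 for Sln and 1.87 for Mybphl on the log2(FPKM + 1) scale, and within A-PDK1KO hearts by 2.66, 2.55 and 1.198. For Dkk3 the values were 1.73 and 1.36, and for Hamp 1.90 and 1.64. The term for a set difference that depends on genotype was -0.71 for Myl4 and -0.79 for Sln, with a limma adjusted p of 1.00 for each. Over all genes limma called 0 such differences (0.0%), 3.26% had an unadjusted p under 0.05, and limma voom on recovered reads called 0. For Nppa the sets differed by 0.26 within controls and by -0.71 within A-PDK1KO hearts.

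None of the 6 called genes was called for genotype. The genotype difference, A-PDK1KO minus control, was -0.25 for Myl4, -0.32 for Sln, -0.38 for Mybphl, -0.01 for Dkk3 and -0.02 for Hamp, with limma adjusted p from 0.370 to 0.993. For Gm8186 it was -0.45 (limma adjusted p = 0.109). Because genotype was balanced over the sets, the set term changed no genotype difference and only its error. With that term 177 genes (1.77%) were called for genotype, without it 208 (2.08%), and 169 were called both ways. Of the 177, 103 were higher and 74 lower in A-PDK1KO hearts, against 64 lower of 396 called, the rest higher, when mitochondrial and haemoglobin genes did not enter the scaling. The natriuretic peptide gene Nppb, called for genotype (-1.89, limma adjusted p = 0.00157), differed by -0.43 between the sets (limma adjusted p = 0.775), at 81.6 to 563 against 141 to 648 FPKM.

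Library measures overlapped between the sets. Recovered reads per heart numbered 10139046 to 11047681 in the Myl7-high and 9249259 to 11384428 in the Myl7-low hearts, and mitochondrially encoded transcripts took 37.5% to 40.4% against 32.7% to 41.5% of them. Between 9671 and 9960 genes reached 1 FPKM in the former and between 9713 and 10723 in the latter, the most in A-PDK1KO replicate 2. Pdpk1, which encodes PDK1, was at 3.14 to 3.77 against 2.73 to 4.04 FPKM, and heart RNA does not test a deletion made in adipocytes. Of all tested genes 31.8% had a difference above 0, and the median of -0.05 moved to -0.09 on the TPM scale and to 0.00 with median-of-ratios factors. The small list medians above, between -0.1 and 0.1, are to be read beside that shift.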

How the data were processed

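Heart RNA of 10 mice was grouped by the genotype label. The authors deposited FPKM values for 11790 genes, each reaching at least 1.00 FPKM in some heart. Read quality was assessed with FastQC 0.11.7, per the labels' protocols. The submitters' processing notes list Trimmomatic 0.38, HISAT2 2.1.0, featureCounts 1.6.3 and the build mm10. For annotation, strand setting and batch, nothing is given in the sources used here. A deposited column of cluster numbers, a label of unstated origin that the authors gave each gene, entered no test.

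Whole reads were recovered from the FPKM with union exon lengths of GENCODE mouse release 21. All 10 values came out whole, within 0.05 read, for 98.2% of genes, and 98.4% of single values did, which gave 9249259 to 11384428 reads per heart. The p-values set a difference against the spread between hearts, which limma estimates partly from other genes. Because the sets were formed from these same libraries, those of the sets are not those of an ordinary group test.

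Hearts were split at 10 FPKM of Myl7. Genes whose mean was 1 FPKM or more were tested with limma 3.58.1 (R 4.3.3; trend, two-sided) on log2(FPKM + 1), set plus genotype, with Benjamini-Hochberg adjustment at 0.05. P-values were adjusted over 9987 genes including Myl7, which was left out of every count. Differences on this scale understate changes of low genes. A second fit added the set by genotype term. The fits were also run on simulated counts, with the same dispersion for every gene and no genotype effect. The sets were not formed there from the simulated level of a gene, so that run does not cover the choice of sets by Myl7. The members, sets and gene lists were chosen with earlier results of these data known, so they are no independent support.

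Named were all measured atrial and ventricular list genes, up to 15 called genes in each direction whose sets do not overlap (predicted genes left out), up to 4 called genes or 3 genes as values from other lists, and Nppb and Pdpk1. Not all values-only genes are printed, and Hcn4, Tbx3, Myh6, Gja1 and Gm8186 were added after their values were seen. Some items are not reported here. Exact binomial intervals (95%) and the limit of 3 reads for a count of 0 cover counting error only. Other settings were a pseudocount of 0.1, no filter or 5 FPKM, other scalings, robust variances, no genotype covariate, the replicate number as a block, Myl7 as a continuous variable, limma voom on recovered reads, other thresholds, each heart left out and, added after seeing the data, adjustment without Myl7. No pair of hearts of a genotype agreed within counting error. Promoters were taken from RefSeq (GRCm38.p6).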

Additional observations from a re-analysis of the deposited data

Results flagged for a closer look

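In 15 of 165 combinations of a named gene and a set, the highest or lowest heart stood apart from the rest of its set, its gap to the nearest heart being large against the range. Chance gives about 1 such case in 20. Among the called genes, Dkk3 was at 2.33 FPKM in A-PDK1KO replicate 4, against 0.458 to 0.854 FPKM in the other Myl7-low hearts, and Hamp was at 0 in control replicate 1, against 0.214 to 0.259 FPKM. For Hamp this was 0 reads against 1 read in each other Myl7-low heart, a difference of a single read. The haemoglobin genes stood apart together in control replicate 1, with Hbb-bs at 758, Hba-a1 at 358 and Hbb-bt at 136 FPKM, against at most 60.5, 38.3 and 11.0 FPKM in the other Myl7-low hearts.

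In Myl7-high hearts, Tbx5 was at 3.33 FPKM in control replicate 5 (others 4.39 to 4.42), Smtn at 6.50 FPKM in the same heart (others 7.46 to 7.61), and Cox6a2, a subunit of cytochrome c oxidase, at 2035 FPKM there (others 1943 to 1959). Kcnd2 was at 3.34 FPKM in A-PDK1KO replicate 3 (others 2.66 to 2.74). Plvap, a gene of fenestrated endothelium and endocardium, was at 5.16 FPKM in control replicate 2 (others 2.87 to 3.21), and the lactate dehydrogenase gene Ldhb at 940.1 FPKM (others 921 to 924).

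In Myl7-low hearts, Aldh1a2, a retinoic acid synthesis enzyme, was at 2.68 FPKM in control replicate 3 (others 0.907 to 1.55), Kcnj11 at 42.5 FPKM in control replicate 4 (others 30.7 to 34.4), the desmosomal gene Jup at 25.8 FPKM in control replicate 1 (others 33.4 to 36.6) and Dhrs3 at 25.8 FPKM in A-PDK1KO replicate 2 (others 16.1 to 18.1).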

How the results depend on the processing

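Myl4 and Sln were called in all 22 other fits in which they were tested, 10 with a heart left out and 12 with another setting. The number of genes called between the sets was 6 and ranged from 2 to 6 with 1 heart left out, with 2 left without control replicate 1, 2, 3 or 4 or A-PDK1KO replicate 5. It was 1 with a filter of 5 FPKM, where the 5 higher genes fall under the filter by construction, and 2 at an adjusted p under 0.01. It lay between 4 and 7 under the other settings except the replicate block, given below. With Myl7 left out of the adjustment, chosen after seeing the data, it was 6, 0 with the filter of 5 FPKM, and 2 to 5 with a heart left out. Calls then also lost were Dkk3 without control replicate 5 (adjusted p = 0.0599) or A-PDK1KO replicate 1 (0.0546), 2 (0.0525) or 3 (0.0536), and Mybphl and Gm8186 without A-PDK1KO replicate 2 (0.0525). The count of differences depending on genotype was 0 under the other settings in which it was fitted (not with Myl7 as a continuous variable or no genotype covariate) and 0 to 1 with a heart left out, the 1 being Egr1 without A-PDK1KO replicate 4. Genotype calls beside the set term, 177, were 57 on the TPM scale, 396 with scaling over genes other than mitochondrial and haemoglobin ones, 21 and 380 at thresholds of 0.01 and 0.1, and 47 to 144 with a heart left out, at most 114 of them when it was any heart but control replicate 4 (144) or A-PDK1KO replicate 2 (120). The cause of these shifts was not tested. The 77 named genes not called were called in 0 of 1752 other fits.

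The replicate numbers did not pair the hearts: the deviations of same-numbered hearts correlated between -0.12 and 0.09, and 0 of 5 control hearts correlated best with its own number. With the replicate number as a block, 2 genes were called between the sets (Myl4 and Sln), 71 for genotype beside the set term and 0 for the term of both.

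With 4 hearts against 6, and Hamp and Mybphl on at most 29 and 63 reads per heart, counting error is part of the spread of these 2 genes.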

Other observations

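In the authors' deposited table each gene carries a cluster number whose origin is not stated. Myl7, Myl4, Sln, Mybphl and Dkk3 all carry the number 14, which 535 genes share, Hamp carries 6 (667 genes) and Nppa carries 15 (319 genes).

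The gene nearest to the threshold among those not called was the predicted gene Gm20632, named because of its values, with a difference of -0.55 between the sets (limma adjusted p = 0.0728), at 0.772 to 0.961 FPKM in the Myl7-high and 1.44 to 2.16 FPKM in the Myl7-low hearts. The imprinted long non-coding RNA H19 differed by -0.90 (limma adjusted p = 0.775). Of 9986 tested genes besides Myl7, 14 differed by at least 1 on the log2(FPKM + 1) scale, of which 5 were called.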
